A study of Mus musculus with 9 samples.

Results

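The Leydig cells of the testis lie between the seminiferous tubules and make testosterone from cholesterol. Luteinizing hormone acts on its receptor, Lhcgr, and raises the supply of cholesterol to the inner mitochondrial membrane through Star. Cyp11a1 then cuts the side chain of cholesterol with electrons passed on by the ferredoxin Fdx1, and the 3β-hydroxysteroid dehydrogenases (Hsd3b), Cyp17a1 and Hsd17b3 carry the product on to testosterone. The nuclear receptor Nr5a1 activates many of these genes, and Insl3 is a peptide hormone that Leydig cells secrete. The 10 genes described here, Lhcgr, Nr5a1, Star, Cyp11a1, Fdx1, Hsd3b1, Hsd3b6, Cyp17a1, Hsd17b3 and Insl3, were chosen by symbol from the 55401 genes of the deposited count table, and all 10 were among the 22510 genes that could be tested.

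The libraries came from testes of wild-type (WT) male mice, described in the study's methods as the ICR strain, with no treatment named in the labels and no age given there. Poly(A) RNA was sequenced before precipitation (input, 3 libraries), after recovery on beads with a control immunoglobulin (IgG, 3 libraries), and after recovery with an antibody against N4-acetylcytidine (acRIP, 3 libraries). N4-acetylcytidine (ac4C) is an acetylated form of cytidine, and acRIP-seq asks which mRNAs are recovered more by that antibody than by IgG and than their level in input. An in vitro transcribed β-globin RNA carrying ac4C had been mixed into the poly(A) RNA before recovery, by the study's methods. All 3 groups therefore share the same tissue and genotype and differ in the recovery of RNA. The sources do not say whether the 3 libraries of a group came from separate mice, so the p-values measure the spread between these libraries, which may be technical.

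A library held between 14647542 and 31340090 counts on genes, with the input libraries the deepest (22023925 to 31340090). The 10 genes together took 0.129% ± 0.00204 (SD, n = 3) of the counts in input, 0.121% ± 0.000793 in IgG and 0.117% ± 0.00220 in acRIP. The whole testis was sampled, so a level in input does not tell the number of Leydig cells from the RNA per Leydig cell. Germ cell markers had a summed level of 14535 to 16343 CPM (counts scaled to library size by the TMM method) in input, against 1268 to 1308 for the 10 Leydig cell genes. In IgG the germ cell markers summed to 16328 to 16858 CPM, and in acRIP to 15805 to 16890 CPM. Prm1 and Prm2 made up most of these sums. Of the 6 germ cell markers, 1 was past 2-fold lower in acRIP over input (Ddx4, log2 fold change -1.12), against 22.9% of all tested genes. None was higher (17.7% of all). Sycp3 had -0.83 there and Tnp1 0.59. The defining adrenal gene Cyp11b1, of a tissue that shares most of this pathway, had 0 to 4 counts per library, and the 5 adrenal markers summed to 18.8 to 21.4 CPM in input, 17.6 to 19.5 in IgG and 26.6 to 34.8 in acRIP. Mrap, with 439 to 548 counts per acRIP library, made up most of that sum, while Cyp21a1, another adrenal enzyme, had 94 to 118 counts in input, 29 to 48 in IgG and 2 to 4 in acRIP, and Cyp11b2 had none in acRIP. Markers of macrophages and endothelium, 5 each, moved with the groups, with sums of 89.9 to 96.3 CPM in input, 66.5 to 69.4 in IgG and 56.6 to 60.5 in acRIP for macrophages, and 16.4 to 19.3, 14.9 to 19.8 and 31.8 to 43.2 for endothelium. None of the 5 macrophage or 5 endothelial markers was at 0 in all libraries, and Cd163 had no count in acRIP. The sums hide members that went different ways. In acRIP over IgG, Lyz2, which carries most of the macrophage sum, had a log2 fold change of 0.11. There 3 of the 5 macrophage markers were past 2-fold lower (20.9% of all tested genes) and 0 higher (11.5%). The 3 were Cd68 (-4.43), Csf1r (-3.49) and Cd163 (a fitted value without counts), and the median of the 5 was -3.49. Cd163 could be tested only through its counts in input, so its lower call was largely set in advance. Of the endothelial markers 2 were past 2-fold higher (Cdh5 3.77, Tek 1.92, against 11.5% of all tested genes) and 1 lower (Pecam1 -1.45, against 20.9%). Sertoli cell markers summed to 1048 to 1090 CPM in input, 891 to 953 in IgG and 839 to 856 in acRIP, with Rhox5 at 0 throughout, and peritubular markers to 42.9 to 44.6, 55.9 to 62.0 and 61.1 to 65.6. Of the 9 Sertoli markers tested, 2 were past 2-fold lower in acRIP over IgG (Fshr -1.07, Dhh -1.45, against 20.9% of all tested genes) and 0 higher (11.5%). Over input 2 were lower (22.9% of all) and 1 higher (Inhbb 1.88, against 17.7%). Of the 5 peritubular markers, 1 was past 2-fold higher over IgG (Tagln 4.08, against 11.5% of all tested genes) and 0 lower (20.9%). Tagln had 4 to 10 counts in input, 0 to 6 in IgG and 32 to 73 in acRIP. It could be tested only through acRIP, so its higher call was largely set in advance. Counts called in such short lists describe these genes and not the cell types. The part of these other cells in the results below was not tested.

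Reads from near-identical genes can be lost or misplaced, which bears on the pair Hsd3b1 and Hsd3b6. Their coding sequences in GENCODE vM21 (GRCm38, the mm10 build) are 1122 bases each and differ at 112 positions, an identity of 90.0%. The stretch of 150 coding bases with the fewest differences is shown because it is where the pair is hardest to tell apart. It covers coding bases 162 to 311 of both genes, runs over 2 exons on the minus strand of chromosome 3 (98853363 to 98856142 for Hsd3b1 and 98806671 to 98807913 for Hsd3b6, intron included), and the capitals mark the bases that differ.
Hsd3b1: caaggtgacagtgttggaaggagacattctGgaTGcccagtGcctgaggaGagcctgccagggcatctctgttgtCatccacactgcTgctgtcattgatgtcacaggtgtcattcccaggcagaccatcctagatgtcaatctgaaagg
Hsd3b6: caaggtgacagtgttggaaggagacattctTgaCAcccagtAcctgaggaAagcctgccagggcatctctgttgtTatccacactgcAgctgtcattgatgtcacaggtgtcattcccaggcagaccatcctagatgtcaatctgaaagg
This stretch holds 7 differences, a median stretch of the same length holds 14, and the longest run without a difference is 72 bases. The other members of the family were nearly silent, with at most 4 counts in a library for Hsd3b2, 3 for Hsd3b3, 2 for Hsd3b5 and none for Hsd3b4 and Hsd3b7. Elsewhere in the genome, the transcripts of Star, Cyp11a1, Cyp17a1, Hsd17b3, Insl3, Nr5a1 and Fdx1 had no match of at least 100 bases and 95% identity. The same held for Hsd3b6, while Hsd3b1 had 1 such match, of 169 bases at 95.9% identity on chromosome 3 (98842872 to 98843040), and Lhcgr had 3 of at most 124 bases. Insl3 is uncertain for another reason, since 404 of its 623 exon bases are also exon bases of Jak3 on the same strand. Cyp11a1 shares 145 of 4804 exon bases (3.02%) with the gene model Gm17322.

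Per length, Insl3 was the most abundant of the 10 genes in input, at 407 ± 41.7 FPKM (counts per kilobase of merged exons, scaled to each library's total; SD, n = 3). Cyp17a1 followed at 152 ± 1.55 FPKM and Hsd3b1 at 65.7 ± 2.90. The ranges of Cyp11a1 (33.4 to 35.4 FPKM) and Fdx1 (30.2 to 33.5) overlapped, although Cyp11a1 was the higher of the pair in each of the 3 libraries. Hsd3b6 (29.4 to 30.2 FPKM), Hsd17b3 (26.9 to 29.2) and Star (23.6 to 25.7) came next in separate but close ranges. The transcription factor Nr5a1 (3.64 to 3.93 FPKM) and the receptor Lhcgr (1.95 to 2.20) stood lowest, with Star 6.57 times above Nr5a1. The order depended on the length used. With the length of a single coding transcript in place of all merged exons, Fdx1 reached 113 ± 5.87 FPKM and Cyp11a1 77.5 ± 2.39, both above Hsd3b1 at 65.7, and Cyp17a1 reached 231 ± 2.36. If only the 219 Insl3 bases outside Jak3 could be counted, its level was 1157 FPKM (1027 to 1259).

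**Figure D1:**
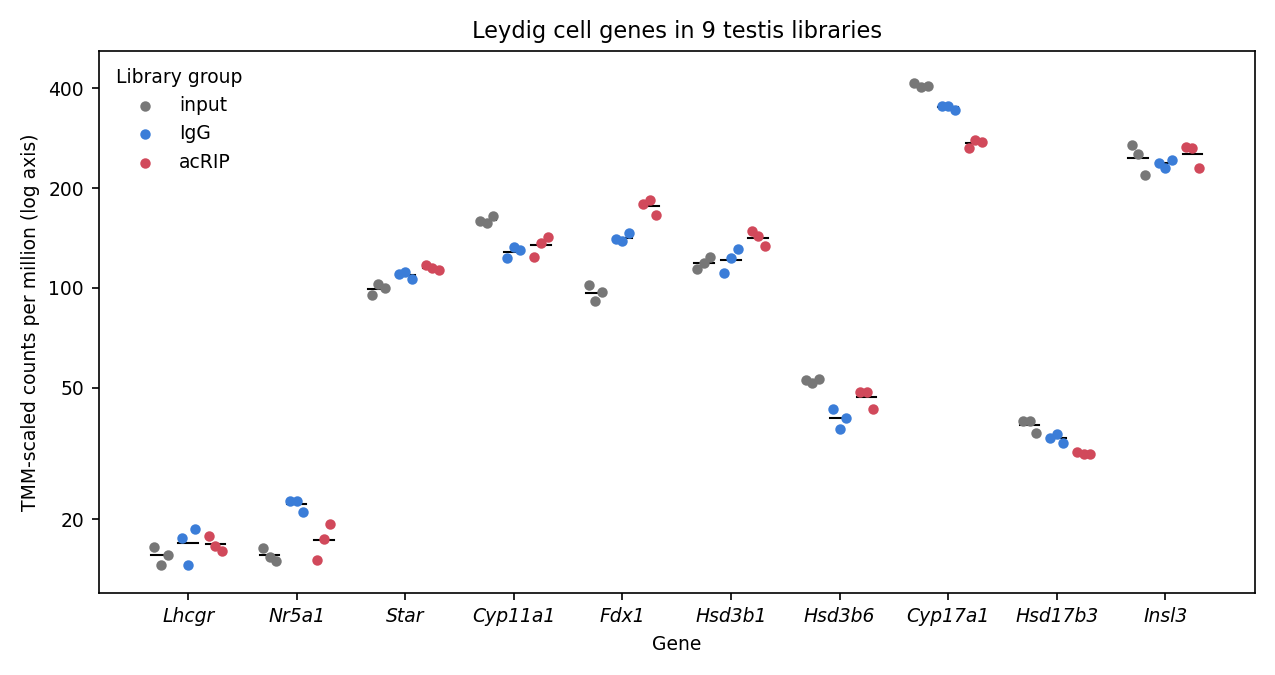
TMM-scaled CPM (log axis) of each of the 10 genes in the 3 input (grey), 3 IgG (blue) and 3 acRIP (red) libraries, with a black line at each group's mean. Cyp17a1 steps down from input (405 to 416) to IgG (345 to 355) and acRIP (265 to 280), Fdx1 steps up, and Lhcgr and Insl3 overlap in all groups. Levels of different genes are not comparable here because lengths differ.

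None of the 10 genes differed by more than 2-fold in any comparison. Between acRIP and IgG the log2 fold changes lay from -0.36 (Cyp17a1 and Nr5a1) to 0.32 (Fdx1). Between acRIP and input they lay from -0.58 (Cyp17a1) to 0.86 (Fdx1), and between IgG and input from -0.38 (Hsd3b6) to 0.55 (Fdx1). By edgeR's quasi-likelihood test (Benjamini-Hochberg adjusted p under 0.05), 0 of 10 were past 2-fold higher in acRIP over IgG against 11.5% of all tested genes, and 0 past 2-fold lower against 20.9%. Without a limit on the fold change, 3 of 10 were higher (26.4% of all tested genes) and 2 of 10 lower (37.6%). In acRIP over input, 0 of 10 were past 2-fold higher (17.7% of all) and 0 lower (22.9%), while 3 of 10 were higher (32.0%) and 3 lower (40.3%) by adjusted p alone. In IgG over input, 0 of 10 were past 2-fold higher (13.5%) and 0 lower (7.22%), and 3 were higher (25.9%) and 3 lower (26.0%) by adjusted p alone. DESeq2 also put 0 of the 10 past 2-fold in each comparison.

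Against both IgG and input, 0 of 10 were past 2-fold higher in acRIP (7.88% of all tested genes) and 0 lower (17.0%). By adjusted p alone, Hsd3b1 and Fdx1 were higher than in both (18.2% of all tested genes) and Cyp17a1 was lower than in both (29.0%). The 2 acRIP comparisons share the acRIP libraries, so they are not independent of each other. Abundance matters to these shares, since low counts give larger fold changes. Among the 7428 tested genes whose mean input count lay within the range of the 10 genes (403 to 10589), 5.39% were past 2-fold in acRIP over IgG, 17.3% in acRIP over input and 8.93% in IgG over input. Of those 7428 genes, 1564 (21.1%) passed in at least 1 comparison, against 0 of the 10. The median absolute log2 fold change of the 10 genes was 0.18, 0.23 and 0.18 in the 3 comparisons, against 0.27, 0.46 and 0.35 for the genes in their count range. Those genes share the limits of the range but were not matched to the 10 on count within it. The values therefore do not compare genes of equal abundance. The median signed log2 fold change of the 10 was 0.07 in acRIP over IgG, 0.08 in acRIP over input and -0.01 in IgG over input, where all tested genes had -0.09, -0.10 and -0.01. By the ratio of group mean FPKM + 1, a measure the study's methods used, the 10 genes ranged from 0.756 (Cyp17a1) to 1.20 (Fdx1) over IgG and from 0.635 (Cyp17a1) to 1.70 (Fdx1) over input, with none over 2.

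**Figure D2:**
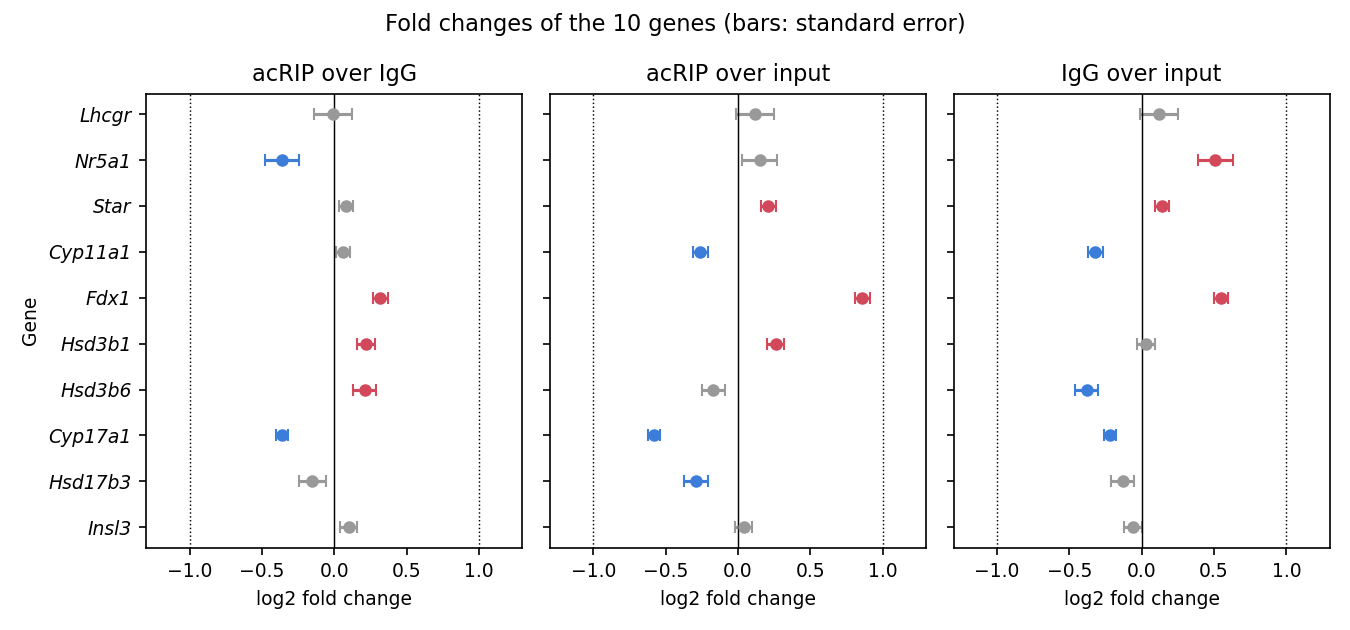
Log2 fold change of each of the 10 genes in the 3 comparisons, with bars of 1 standard error, derived from edgeR's fold change and F statistic. Red marks genes higher and blue genes lower by adjusted p, grey genes that did not pass, and dotted lines a 2-fold change. All 10 genes lie inside the dotted lines in each panel, and Fdx1 in acRIP over input (0.86) comes closest.

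The receptor at the head of the pathway, Lhcgr (ENSMUSG00000024107.7, chromosome 17, 88716481 to 88791990, minus strand), had 16.5, 14.6 and 15.6 CPM in the input libraries, 17.6, 14.6 and 18.7 in IgG and 17.8, 16.6 and 16.1 in acRIP. The 3 groups overlapped. The log2 fold change of Lhcgr was -0.01 in acRIP over IgG (standard error 0.13, adjusted p = 0.962), 0.12 over input (0.13, adjusted p = 0.417) and 0.12 in IgG over input (0.13, adjusted p = 0.429). These values rest on 259 to 526 counts per library, the fewest among the 10 together with Nr5a1.

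Nr5a1 (ENSMUSG00000026751.14, chromosome 2, 38692656 to 38714542, minus strand), which encodes steroidogenic factor 1, had 16.4, 15.4 and 15.0 CPM in input, 22.8, 22.7 and 21.1 in IgG and 15.1, 17.4 and 19.3 in acRIP. The IgG libraries were above all others, and acRIP and input overlapped. Nr5a1 was lower in acRIP than in IgG, by a log2 fold change of -0.36 (standard error 0.12, adjusted p = 0.00951), and higher in IgG than in input, by 0.51 (0.12, adjusted p = 0.000522). In acRIP over input it had 0.15 (0.12, adjusted p = 0.279). Without acRIP replicate 1 the difference from IgG did not pass (-0.27, adjusted p = 0.0700).

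Star (ENSMUSG00000031574.8, chromosome 8, 25806555 to 25815982, plus strand), the protein that brings cholesterol to the inner mitochondrial membrane, had 95.1, 103 and 99.8 CPM in input, 110, 112 and 106 in IgG and 117, 115 and 113 in acRIP. The groups did not overlap, but the steps were small. Star was higher in acRIP than in input by a log2 fold change of 0.21 (standard error 0.05, adjusted p = 0.000754) and higher in IgG than in input by 0.14 (0.05, adjusted p = 0.0322). In acRIP over IgG it had 0.08 (0.05, adjusted p = 0.227). The difference between IgG and input did not pass without input replicate 1 (adjusted p = 0.142) or without IgG replicate 2 (adjusted p = 0.101), nor with upper quartile normalization (0.04, adjusted p = 0.569), with total counts alone (adjusted p = 0.102) or with every gene that had a count kept in the fit (adjusted p = 0.149).

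Cyp11a1 (ENSMUSG00000032323.13, chromosome 9, 58006411 to 58027023, plus strand), the enzyme that starts steroid synthesis, had 159, 157 and 165 CPM in input, 123, 133 and 130 in IgG and 124, 137 and 142 in acRIP. Both precipitated groups lay below all input libraries and overlapped each other. Its log2 fold change was -0.26 in acRIP over input (standard error 0.05, adjusted p = 6.98e-05), -0.32 in IgG over input (0.05, adjusted p = 5.30e-06) and 0.06 in acRIP over IgG (0.05, adjusted p = 0.318).

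Fdx1 (ENSMUSG00000032051.9, chromosome 9, 51943306 to 51963556, minus strand), the electron carrier of Cyp11a1, had 102, 91.4 and 97.0 CPM in input, 140, 139 and 146 in IgG and 179, 184 and 166 in acRIP. The 3 groups were separate and stepped up in that order. Fdx1 was higher in acRIP than in IgG by a log2 fold change of 0.32 (standard error 0.05, adjusted p = 5.20e-06), or 1.25-fold, and higher than in input by 0.86 (0.05, adjusted p = 1.51e-15), or 1.82-fold. The step from input to IgG, 0.55 (0.05, adjusted p = 1.86e-10), was the larger portion of the difference from input. Per length of merged exons, Fdx1 stood at 0.935 times Cyp11a1 in input (0.904 to 0.992 over the libraries), 1.70 times in IgG (1.62 to 1.76) and 2.04 times in acRIP (1.81 to 2.23). With the length of a single coding transcript, Fdx1 was above Cyp11a1 in input already (113 and 77.5 FPKM). The size of each such ratio depends on the length used, but its change between groups does not. The 3 ranges of this ratio were separate, and an exact two-sided permutation test of 3 against 3 libraries gave p = 0.1, the smallest it allows, for each of the 3 comparisons. In all, 5 such ratios were tested in 3 comparisons each, 15 tests, none of which could pass 0.05 alone.

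Hsd3b1 (ENSMUSG00000027871.16, chromosome 3, 98852194 to 98859794, minus strand) had 114, 119 and 124 CPM in input, 111, 123 and 131 in IgG and 148, 143 and 134 in acRIP. The acRIP libraries were the highest, and input and IgG overlapped. It was higher in acRIP than in IgG by a log2 fold change of 0.22 (standard error 0.06, adjusted p = 0.00138) and than in input by 0.26 (0.06, adjusted p = 0.000206). In IgG over input it had 0.03 (0.06, adjusted p = 0.644).

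Hsd3b6 (ENSMUSG00000027869.14, chromosome 3, 98805504 to 98814443, minus strand), which catalyses the same step, had 52.7, 51.6 and 52.9 CPM in input, 43.2, 37.5 and 40.5 in IgG and 48.6, 48.4 and 43.0 in acRIP. The input libraries were above all others, and acRIP and IgG overlapped. Hsd3b6 was lower in IgG than in input by a log2 fold change of -0.38 (standard error 0.08, adjusted p = 0.000118), and its value in acRIP over input, -0.17 (0.08, adjusted p = 0.0524), did not pass. It was higher in acRIP than in IgG by 0.21 (0.08, adjusted p = 0.0211), a call lost without IgG replicate 2 (adjusted p = 0.108), without acRIP replicate 1 (0.0688) or without acRIP replicate 2 (0.0647), and with total counts alone (0.16, adjusted p = 0.0774).

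Within the pair, Hsd3b6 made up 31.2% ± 0.872 (SD, n = 3) of the summed FPKM in input, 25.6% ± 2.72 in IgG and 25.3% ± 0.513 in acRIP. Both precipitated groups lay below the input libraries (30.5% to 32.2%), and overlapped each other. The exact two-sided permutation test gave p = 0.1 for each against input, the smallest 3 against 3 libraries allow, and p = 1.0 between acRIP and IgG. In acRIP over IgG the log2 fold changes of Hsd3b1 and Hsd3b6 were close to each other (0.22 and 0.21).

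Cyp17a1 (ENSMUSG00000003555.8, chromosome 19, 46667165 to 46673172, minus strand), which turns progestins into androgens in the endoplasmic reticulum, had 416, 405 and 408 CPM in input, 353, 355 and 345 in IgG and 265, 280 and 276 in acRIP. The 3 groups were separate and stepped down in that order. Its log2 fold change was -0.36 in acRIP over IgG (standard error 0.04, adjusted p = 3.36e-09), -0.58 over input (0.04, adjusted p = 1.14e-14) and -0.22 in IgG over input (0.04, adjusted p = 9.21e-06). It was thus 1.28-fold lower in acRIP than in IgG and 1.5-fold lower than in input. The FPKM of Fdx1 was 0.211 times that of Cyp17a1 in input (0.201 to 0.219), 0.360 in IgG (0.349 to 0.378) and 0.575 in acRIP (0.536 to 0.603). Cyp17a1 was 6.14 times Star per length in input (5.85 to 6.49), 4.78 in IgG (4.70 to 4.85) and 3.54 in acRIP (3.38 to 3.64). For both ratios the ranges of the groups were separate (exact two-sided permutation p = 0.1 in each comparison of 3 against 3 libraries).

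Hsd17b3 (ENSMUSG00000033122.14, chromosome 13, 64058266 to 64089230, minus strand), which makes testosterone from androstenedione, had 39.7, 39.6 and 36.4 CPM in input, 35.2, 36.3 and 34.1 in IgG and 32.0, 31.6 and 31.4 in acRIP. The groups did not overlap, with acRIP lowest. It was lower in acRIP than in input by a log2 fold change of -0.29 (standard error 0.08, adjusted p = 0.00313). The values in acRIP over IgG, -0.15 (0.09, adjusted p = 0.116), and in IgG over input, -0.13 (0.08, adjusted p = 0.191), did not pass.

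Insl3 (ENSMUSG00000079019.2, chromosome 8, 71689214 to 71690575, plus strand) had 270, 253 and 219 CPM in input, 239, 230 and 244 in IgG and 267, 264 and 230 in acRIP. All 3 groups overlapped. Its log2 fold change was 0.10 in acRIP over IgG (standard error 0.06, adjusted p = 0.147), 0.04 over input (0.06, adjusted p = 0.589) and -0.06 in IgG over input (0.06, adjusted p = 0.390). Without acRIP replicate 3, Insl3 passed as higher in acRIP than in IgG (0.17, adjusted p = 0.0131), and without input replicate 3 it passed as lower in IgG than in input (-0.14, adjusted p = 0.0351).

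The other genes of the pathway were taken from a list of 40 genes of cholesterol supply, electron transfer, other steroid enzymes, signalling and regulators, of which 38 were tested. Cyp7b1, which hydroxylates oxysterols and androgens, and the nuclear receptor gene Nr5a2 had too few counts. In acRIP over IgG, 1 of the 38 was past 2-fold higher (11.5% of all tested genes) and 10 lower (20.9%). In acRIP over input 5 were higher (17.7% of all) and 11 lower (22.9%), and in IgG over input 3 were higher (13.5%) and 2 lower (7.22%). Against both groups, 0 were past 2-fold higher in acRIP (7.88% of all) and 10 lower (17.0%). Their median log2 fold change was -0.23, -0.14 and 0.14 in the 3 comparisons. Genes that passed the filter only through a group where they were high had to differ, so these counts describe the 38 and not the pathway as such.

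**Figure D3:**
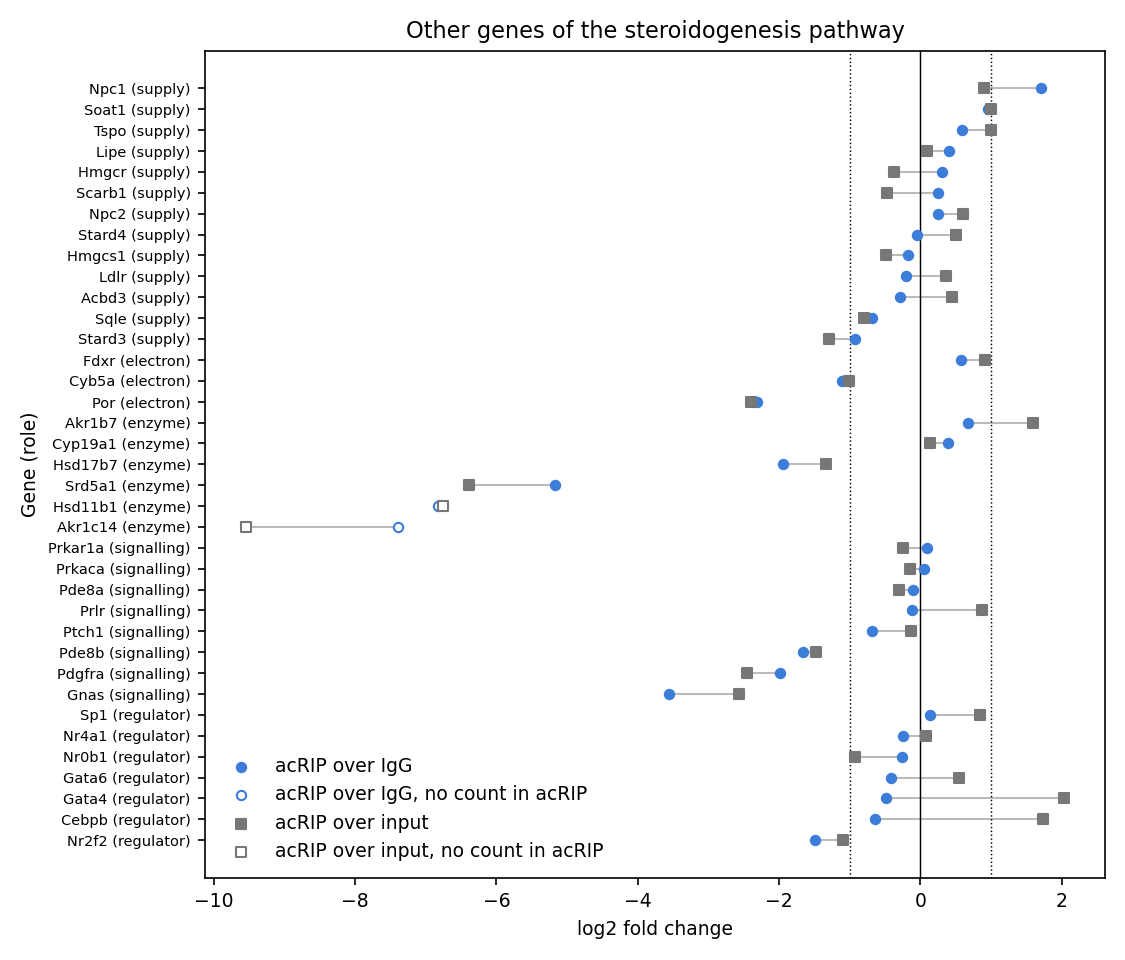
Log2 fold change of the tested pathway genes reported here in acRIP over IgG (blue circles) and over input (grey squares), grouped by role and ordered within it, with dotted lines at 2-fold. Open symbols mark Akr1c14 and Hsd11b1, which had no count in acRIP, so that their fitted positions are not measured folds. Of the 13 cholesterol supply genes only Npc1 lies outside the dotted lines in acRIP over IgG, while Por, Srd5a1 and Gnas lie far to the left in both comparisons.

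Of the 13 genes of cholesterol supply, 1 was past 2-fold higher and 0 lower in acRIP over IgG (11.5% and 20.9% of all tested genes). In acRIP over input 2 were higher and 1, Stard3, lower (-1.29 on the log2 scale, standard error 0.17, adjusted p = 3.64e-08), where all tested genes had 17.7% and 22.9%. Npc1, which exports cholesterol from lysosomes, had 2.85, 3.72 and 2.10 CPM in input, 1.56, 1.54 and 1.83 in IgG and 4.64, 4.02 and 7.55 in acRIP. The acRIP libraries were above all others. Npc1 thus rose over IgG by 1.71 on the log2 scale (standard error 0.31, adjusted p = 1.90e-05) and over input by 0.90 (0.29, adjusted p = 0.00583), the latter lost without acRIP replicate 3 (0.59, adjusted p = 0.0971). Soat1, which esterifies cholesterol for storage, had 36.9 to 44.6 CPM in input and IgG and 77.5 to 83.5 in acRIP, a log2 fold change of 0.95 against IgG (0.08, adjusted p = 5.43e-12) and of 1.0 against input (0.07, adjusted p = 1.49e-13). Tspo, a protein of the outer mitochondrial membrane, had 20.3 to 22.8 CPM in input, 26.5 to 30.6 in IgG and 41.7 to 44.5 in acRIP. In acRIP over IgG, Tspo had a log2 fold change of 0.59 (0.09, adjusted p = 2.33e-06), and in acRIP over input 1.0 (0.09, adjusted p = 3.02e-11). Both Soat1 and Tspo were 2.01-fold higher than in input, at the edge of the 2-fold limit. Scarb1, the receptor for high-density lipoprotein, had 111 to 122 CPM in input, 68.4 to 71.2 in IgG and 80.4 to 84.8 in acRIP, so that acRIP lay above IgG (0.25, standard error 0.06, adjusted p = 0.000619) and below input (-0.47, 0.06, adjusted p = 1.75e-08).

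Of the 3 genes of electron transfer on the list, 0 were past 2-fold higher and 2 lower in acRIP over IgG (11.5% and 20.9% of all tested genes). The counts were the same in acRIP over input (17.7% and 22.9% of all). Fdxr, the mitochondrial reductase that feeds Fdx1, had 19.3, 24.5 and 16.6 CPM in input, 24.2, 26.9 and 24.8 in IgG and 36.6, 36.7 and 40.5 in acRIP. Like Fdx1, it was higher in acRIP than in both groups, with log2 fold changes of 0.58 over IgG (standard error 0.11, adjusted p = 3.80e-05) and 0.92 over input (0.11, adjusted p = 1.11e-08). Por, the reductase of the endoplasmic reticulum that feeds Cyp17a1, had 13.8, 13.8 and 14.9 CPM in input, 15.4, 12.7 and 11.9 in IgG and 2.58, 3.57 and 1.83 in acRIP. Input and IgG overlapped, and acRIP lay far below both. Por was 4.97-fold lower in acRIP than in IgG (log2 fold change -2.31, standard error 0.20, adjusted p = 2.90e-11) and 5.28-fold lower than in input (-2.40, 0.20, adjusted p = 1.80e-12). Cyb5a, a cytochrome b5 that assists Cyp17a1, had 55.2 to 63.7 CPM in input and IgG and 32.6, 22.6 and 29.0 in acRIP. Cyb5a fell in acRIP, with -1.11 on the log2 scale against IgG (0.09, adjusted p = 2.24e-11) and -1.01 against input (0.09, adjusted p = 3.08e-11). The latter is 2.01-fold lower, at the edge of the 2-fold limit. With 1 library left out, the values of Cyb5a ranged from -1.22 to -0.96 against IgG and from -1.12 to -0.86 against input.

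The FPKM of Por was 0.507 times that of Fdxr in input (0.393 to 0.628), 0.370 in IgG (0.330 to 0.445) and 0.0495 in acRIP (0.0315 to 0.0680). The acRIP range was separate from both others (exact two-sided permutation p = 0.1 for 3 against 3 libraries), while IgG and input overlapped (p = 0.2).

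Of the 6 other steroid enzymes tested, 4 were past 2-fold lower in acRIP than in IgG (20.9% of all tested genes) and 4 lower than in input (22.9%). Srd5a1, Akr1c14, Hsd11b1 and Akr1b7 rest on few counts. Srd5a1, Akr1c14 and Hsd11b1 passed the filter only through input and IgG, so their lower call in acRIP was largely set in advance. The count of 4 therefore describes these genes and is no finding about steroid enzymes. Srd5a1, which reduces testosterone to dihydrotestosterone, had 92, 86 and 116 counts in input, 18, 42 and 28 in IgG and 2, 0 and 0 in acRIP. Summed and scaled, its level was 43.5 times higher in IgG than in acRIP (95% interval 11.7 to 365, counting error only) and 100 times higher in input (27.5 to 830). These ratios rest on 2 counts in acRIP replicate 1. With halved counts, as if each pair had been counted once, the intervals were 7.41 to 1757 and 17.7 to 3979, and without that library Srd5a1 was at least 9.75-fold lower than in IgG and 23.7-fold lower than in input, taking 3 counts per library as the limit, or 4.88-fold and 11.8-fold taking 6. Of its exon bases, 16.4% are shared with the gene model Gm17108. Akr1c14, a 3α-hydroxysteroid dehydrogenase, had 104, 122 and 122 counts in input, 20, 6 and 28 in IgG and 0 in every acRIP library. Taking 3 counts per library as the limit that a count of 0 allows, Akr1c14 in acRIP was at least 6.05-fold lower against IgG and at least 27.2-fold lower against input. Hsd11b1, which interconverts glucocorticoids, had 22, 24 and 6 counts in input, 14, 6 and 16 in IgG and 0 in every acRIP library, at least 4.05-fold lower against IgG and 3.91-fold lower against input. Most low counts in the table were even (81.9% to 84.3% of genes with 1 to 20 counts, by library), as when both mates of a pair are counted, and with 6 counts as the limit these bounds were 3.03-fold and 13.6-fold for Akr1c14 and 2.03-fold and 1.96-fold for Hsd11b1. Akr1b7, an aldose reductase-like enzyme, had 12, 8 and 10 counts in input, 4, 20 and 16 in IgG and 24, 20 and 15 in acRIP. Its log2 fold change of 1.60 over input passed (standard error 0.60, adjusted p = 0.0181), but not without input replicate 2 (adjusted p = 0.0514) or acRIP replicate 1 (0.0821). The value of 0.67 over IgG did not pass (0.58, adjusted p = 0.320). Akr1b7 passed the filter only through IgG and acRIP, so a higher call over input was favoured in advance.

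Among 9 signalling genes, 0 were past 2-fold higher and 3 lower in acRIP over IgG (11.5% and 20.9% of all tested genes), and 1 higher and 3 lower in acRIP over input (17.7% and 22.9%). Gnas, whose product couples Lhcgr to adenylate cyclase, had 17, 22 and 17 counts in input, 23, 16 and 38 in IgG and 1, 3 and 2 in acRIP. It was 12.7 times higher in IgG than in acRIP (95% interval 5.57 to 35.6, or 3.97 to 63.4 with halved counts, counting error only). The log2 fold changes were -3.56 over IgG (standard error 0.72, adjusted p = 7.19e-05) and -2.57 over input (0.73, adjusted p = 0.00239). Like Srd5a1, Gnas passed the filter only through input and IgG, so its lower call in acRIP was largely set in advance. Gnas is a complex locus, where 21.6% of the exon bases are shared with genes of the opposite strand, and the strand setting of the counting is not given in the sources used here. Of the 7 regulators tested, 0 were past 2-fold higher (11.5% of all) and 1, Nr2f2, lower (20.9%) in acRIP over IgG (-1.49, 0.32, adjusted p = 0.000142). In acRIP over input 1 was higher, Gata4, a transcription factor that Leydig and Sertoli cells share (2.03, 0.24, adjusted p = 6.89e-09), and 1 lower, Nr2f2 (-1.10, 0.31, adjusted p = 0.00243). Gata4 had 29 to 56 counts in the input libraries, 103 to 176 in IgG and 90 to 122 in acRIP, and was higher in IgG than in input by 2.52 (0.24, adjusted p = 7.49e-11). Cebpb also passed 2-fold in IgG over input (2.38, 0.79, adjusted p = 0.0120), on 0 to 14 counts per library. Its input libraries held 0 to 6 counts. It passed the filter through the IgG libraries (8 to 14 counts), so this call was largely set in advance.

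**Figure D4:**
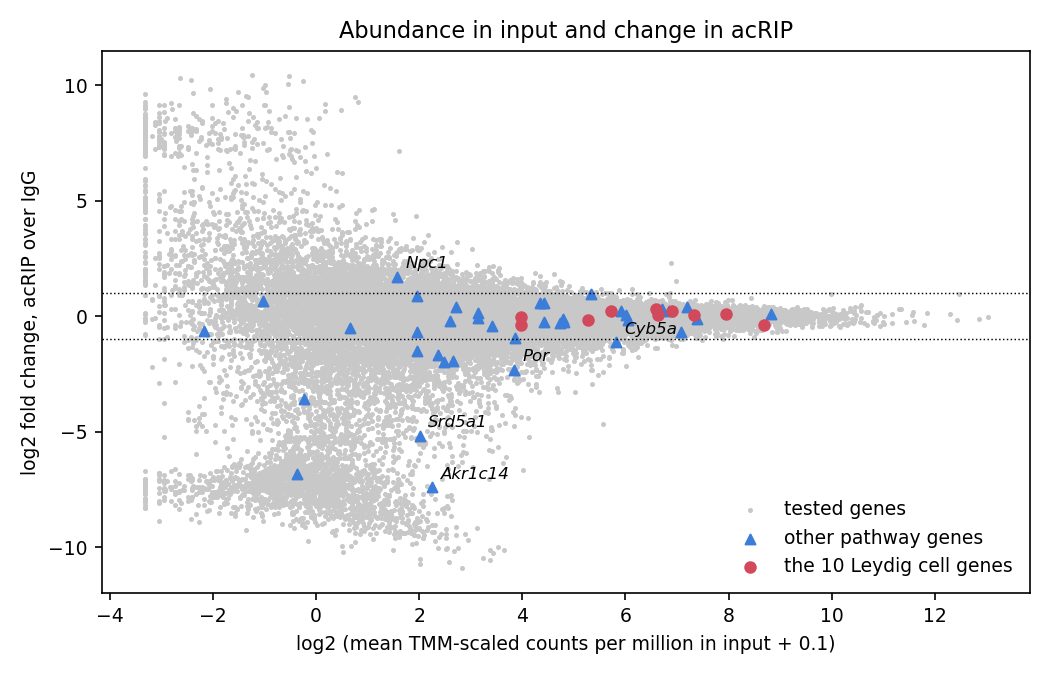
Log2 fold change of acRIP over IgG against the mean level in input (log2 of TMM-scaled CPM plus 0.1) for the 22510 tested genes (grey), the 38 other pathway genes (blue triangles) and the 10 Leydig cell genes (red), with dotted lines at 2-fold. The 10 genes lie in the abundant, narrow portion of the cloud, and Srd5a1 and Akr1c14 lie in the spread of less abundant genes below it.

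The 10 genes spanned a wide range of base composition. Their main coding transcripts had a median GC content of 49.3%, from 41.9% (Lhcgr) to 63.6% (Insl3), and a median length of 1835 bases, against 50% and 2851 bases over 15514 tested protein-coding genes.

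As a description of likeness across the 9 libraries, the standardised log2 CPM of the 10 genes was averaged and set against 10470 protein-coding genes with at least 100 mean counts. The most similar were Pkib (Pearson r = 0.904), Fam186a (0.868), Acbd6 (0.858), Rwdd4a (0.854) and Ctps2 (0.851). The 10 genes themselves ranged from r = -0.352 (Nr5a1) to 0.914 (Insl3) against their own mean, so they did not vary together over these libraries. The libraries share depth and preparation within a group, and 9 points leave such values loose.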

How the data were processed

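Trimmed reads (Trim Galore 0.6.7) were mapped to mm10 with STAR 2.7.10a and uniquely mapped reads were counted on genes with featureCounts 2.0.2, per the labels and the study's methods. The authors deposited raw counts per gene without normalization, with a summed exon length. Not given in the sources used here are the gene annotation release, the use of strand and the counting of single mates or pairs. Libraries followed the Smart-seq2 procedure, with RNA of the IgG and acRIP groups too scarce to quantify, so amplification affects all values and intervals cover counting error only. Groups and replicate numbers came from the sample labels. Columns of per-sample values not used numbered 0.

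Of 55401 genes, 55141 identifiers were named through GENCODE vM21, and 54821 had the same coordinates there. Counts were tested with edgeR 4.0.16 in R 4.3.3 (filterByExpr, TMM, quasi-likelihood, 1 mean per group, all 9 libraries, 22510 genes), with Benjamini-Hochberg adjusted p under 0.05 and, where stated, over 2-fold. The standard errors given with these fits were derived as the absolute log2 fold change over the square root of the test's F statistic. TMM-scaled CPM and FPKM were computed from the counts. DESeq2 1.42.0, other normalizations and filters, fits of 6 libraries, halved counts, leaving out each library in turn and a replicate block were alternatives, as were an FPKM pseudocount of 0.1 and totals of protein-coding counts. The transcript lengths, the unshared bases of Insl3 and the halved-count intervals and bounds of Srd5a1 and Gnas were added after seeing the data. Scripts were tested on simulated data.

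The 10 genes and all lists were chosen with earlier results of these data known. Named besides the 10 were Fdxr, Por, Cyb5a, Tspo and Scarb1, the 4 highest and 4 lowest pathway genes in acRIP over IgG (1 of these is not reported here), and the 5 genes most similar to the mean of the 10. Nr2f2, Gata4, Cebpb, Stard3 and single markers were named after their values were seen. Peaks and tracks were not analysed here.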

Additional observations from a re-analysis of the deposited data

How the results depend on the processing

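Under every alternative run, 0 of the 10 genes were past 2-fold in any of the 3 comparisons or against both groups, and 0 had a ratio of FPKM + 1 over 2. Of 540 refits of single genes and comparisons, 519 kept their direction and side of the threshold, 10 lost the call and 11 gained it, and no call changed direction. With upper quartile normalization, 5 of the 10 genes were higher in acRIP over IgG (with Star and Insl3 added). In IgG over input 5 were lower (with Hsd17b3 and Insl3 added). The median log2 fold change of the 10 was 0.03 in acRIP over input and -0.11 in IgG over input. All tested genes moved as well with this setting. Of 22510, 6551 were higher in acRIP over IgG (5948 in the main fit) and 6933 lower in IgG over input (5857 in the main fit). With total counts alone, 2 genes were lower than both groups and the median over input was -0.01. The same 2 settings left 3 pathway genes past 2-fold higher in acRIP over input. Of all 22510 tested genes, 3808 were past 2-fold higher there with upper quartile normalization and 3693 with total counts alone. With at least 10 counts required in every library, 5 pathway genes were lower over IgG, 5 lower over input and 0 lower in IgG over input, since fewer genes were tested. Of the 16047 genes tested then, 1427, 1852 and 611 were past 2-fold lower in the same 3 comparisons. The cause of the other moves was not tested.
With 1 library left out, from 1 to 2 of the 10 genes were lower in acRIP over IgG (1 without acRIP replicate 1), and their median over input ranged from 0.04 (without input replicate 3 or acRIP replicate 1) to 0.14 (without input replicate 1). Pathway genes past 2-fold then numbered 1 to 2 higher over IgG (2 without IgG replicate 3), 3 to 5 higher over input (3 without input replicate 3), 3 to 5 higher in IgG over input (5 without input replicate 1) and 1 to 2 lower there (1 without input replicate 3). Of all tested genes, 8497 of 23563 were lower in acRIP over IgG by adjusted p alone without acRIP replicate 1. Past 2-fold, 2669 of 23307 were higher over IgG without IgG replicate 3, and 3996 of 23411 higher over input without input replicate 3. In IgG over input, 3046 of 23447 were higher without input replicate 1 and 1467 of 23411 lower without input replicate 3.

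Replicate numbers are shared by the groups, but deviations of same-numbered libraries from their group means correlated by only -0.007 to 0.035, so the numbers were not taken to pair the libraries. With a replicate block, 3 of the 10 genes were higher and 2 lower in acRIP over IgG, 3 and 3 in acRIP over input, and 3 and 3 in IgG over input, as without it. Of all 22510 tested genes, 5961 were higher and 8436 lower with the block in acRIP over IgG. In acRIP over input these were 7122 and 9012, and in IgG over input 5691 and 5811. The median log2 fold change of all tested genes moved by -0.28 in acRIP over input with DESeq2 and by -0.34 when every gene with a count in any library was kept, through the low genes added (-0.11 in IgG over input), and by 0.11 with at least 10 counts in every library. No other setting that changed only the scaling moved it by more than 0.10. Depth limits most the values of Nr5a1 and Lhcgr among the 10 genes, and of Akr1b7, Gnas, Hsd11b1, Srd5a1 and Akr1c14 in the pathway.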
